A study of Mus musculus with 17 samples.

Results

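Lef1, Tcf7 and Tcf7l2 encode 3 of the TCF/LEF transcription factors, the DNA-binding end of the Wnt/β-catenin pathway. They were followed here in the microdissected epithelial cells of 17 mouse mammary tumors. All array probes that the scanner files or RefSeq assign to these genes were taken, each on its own. This gave 9 of 41174 probes and 3 of 28786 gene names, with 3 probes for Lef1, 2 for Tcf7 and 4 for Tcf7l2. Probes were assigned by these names, not by their levels.

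TCF/LEF proteins bind a short DNA element through an HMG box and have little activity of their own. Without a Wnt signal they hold Groucho (Tle) corepressors on their target genes, and with a signal they recruit β-catenin in their place. Lef1 marks the early mammary bud and the hair follicle, and both Lef1 and Tcf7, also called TCF1, are known as Wnt targets and as factors of developing T cells. Tcf7l2, also called TCF4, is the member best known from intestinal epithelium.

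The tumors arose in FVB mice that carry a p75-CUX1 transgene (9 tumors) or a p110-CUX1 transgene (8 tumors), shorter isoforms of the homeodomain factor CUX1 driven by the MMTV promoter, which is active mainly in mammary epithelium. By histology they were 4 adenosquamous carcinomas, all from p75-CUX1 mice, 9 solid carcinomas, 2 adenomyoepitheliomas, 1 adenocarcinoma and 1 adenoma. Each tumor came from a different mouse, whose age the labels do not give, and normal mammary gland was not analysed here. Tumor RNA was hybridized with the Stratagene universal mouse reference in dye swaps, on 38 arrays in all. Values are log2 ratios of tumor over that reference, so that 0 is the level of the reference and a difference of 1 is a change of 2 fold.

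The tumors were also grouped by the clusters that the study drew from Wnt ligand expression on these same arrays, a grouping that the sample labels do not carry. The 5 high-Wnt tumors were p75-47, p75-80, p75-94, p110-225 and p110-374. The 5 medium-Wnt tumors were p75-90, p75-129, p75-216, p110-98 and p110-121, and the other 7 tumors were low-Wnt. None of the 3 factors is a Wnt ligand, so none entered the clustering. Of the high-Wnt tumors 3 are adenosquamous and 1 is solid, whereas of the low-Wnt tumors 6 are solid and 1 (p75-101) is adenosquamous.

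Some libraries stood apart. A probe counts as measured in a tumor where all arrays of the tumor had its tumor color well above background, and the share of probes measured ran from 18.2% in p110-374 to 61.8% in p75-129. In p110-98, p110-225 and p110-374 the reference was 12, 8.72 and 11.1 times as bright as the tumor at the 95th percentile of signal, against at most 4.09 times in the other 14 tumors. Of 10 mammary epithelial markers, such as Epcam and the keratins, 8 to 10 were measured in 16 tumors. In p110-121, labeled as epithelial tumor cells like the rest, 4 were measured and their mean log2 ratio was -1.23, against 1.16 to 3.62 in the others. The main cluster comparisons, the transgene comparison and the relations between the genes are also given without the dim libraries.

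Each probe is a 60-base oligonucleotide with 1 spot per array, and the probes sample different stretches of each gene (positions in build mm7, as the files give them, without exon annotation). For Lef1, A_51_P501145 lies at chr3:131060609-131060668, A_51_P420400 at chr3:131041424-131059585, and A_52_P333110 at chr3:130953629-130953688, 107 kb from A_51_P501145. The 60 bases of A_51_P420400 are spread over 18162 bases, so it reads pieces of the transcript that lie apart in the genome. For Tcf7 (minus strand), A_52_P244702 lies at chr11:52209369-52209428 and A_52_P244711 at chr11:52210086-52210145, 0.717 kb apart. For Tcf7l2, A_52_P146043 lies at chr19:55823461-55823520, A_52_P494915 at chr19:55839897-55839956, A_52_P316355 at chr19:55846946-55847005 and A_52_P566741 at chr19:55848072-55848131.

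The sequences show which part of each transcript was read. The 3 probes that carry the results below, 1 per gene, are given by their first 30 bases, 5′ to 3′ as on the array:
Lef1 A_51_P501145: atctgtttttattagccgattagtgggaat
Tcf7 A_52_P244702: ttttttcattctcgctgtagatagcctgaa
Tcf7l2 A_52_P566741: gatttgtatgtagttttaatgtcacctata
These 2 probes, printed whole, lie further upstream in Lef1 and Tcf7l2 and gave ratios near 0:
Lef1 A_51_P420400: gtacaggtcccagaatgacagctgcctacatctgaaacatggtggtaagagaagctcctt
Tcf7l2 A_52_P146043: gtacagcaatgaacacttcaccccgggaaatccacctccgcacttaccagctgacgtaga

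How much a probe can say depends on its detection. Tcf7l2 A_52_P566741 was well above background in both colors on all 38 arrays and so was measured in all 17 tumors. Tcf7 A_52_P244702 was measured in 9 tumors and Lef1 A_51_P501145 in 3 (p75-80, p75-94 and p110-416), although the reference color was well above background on all 38 arrays for both. Where a probe was not measured, its ratio comes from a tumor signal near background.

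The other 6 probes spanned small ranges. Lef1 A_52_P333110 was not well above background in either color on any array, and its log2 ratios ran from -0.09 to 0.10. Lef1 A_51_P420400 was above background in the reference on 1 array and in the tumor color on 2, both of p75-129, with ratios from -0.15 to 0.34. Of the 3 Lef1 probes, A_51_P501145 alone was thus well above background in the reference throughout. Tcf7 A_52_P244711 was above background in the reference on all 38 arrays but in the tumor color on 7, with ratios from -0.58 to 0.04. For Tcf7l2, A_52_P146043 was measured in 5 tumors (-0.19 to 0.34), A_52_P316355 in 2 (-0.79 to 0.65) and A_52_P494915 in none (-0.41 to 0.13).

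**Figure D1:**
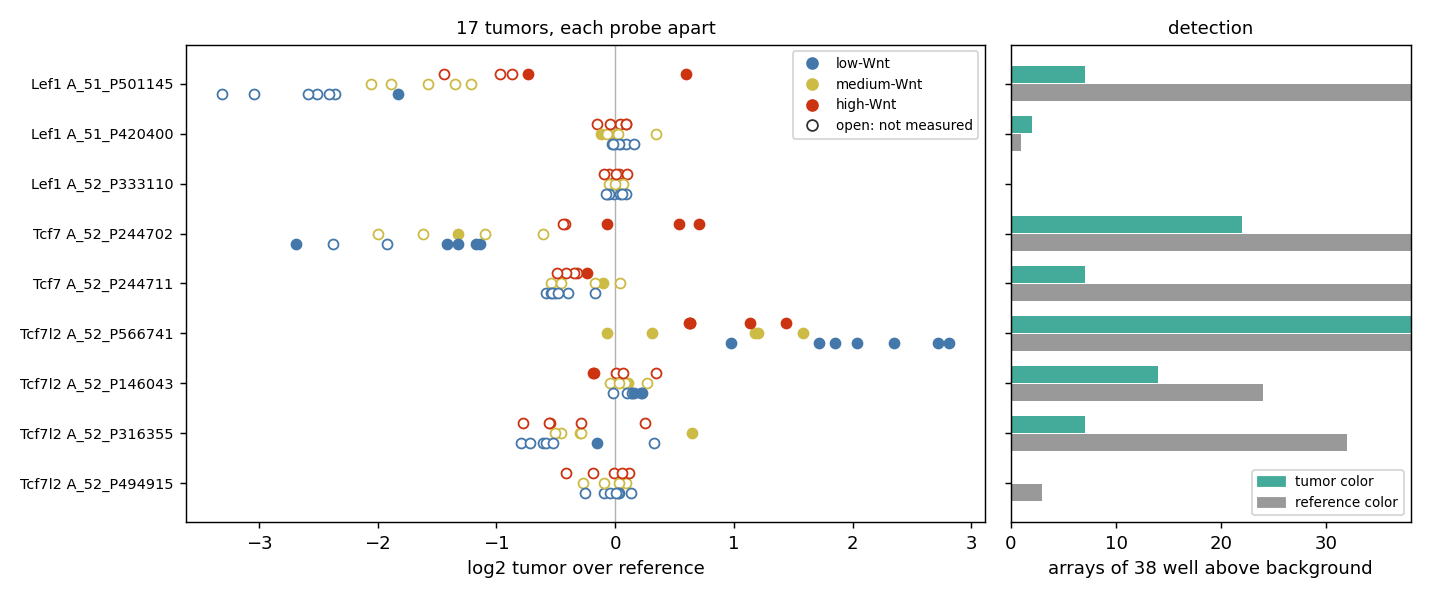
Left, log2 ratio of tumor over reference (horizontal axis) for each of the 9 probes (rows) in 17 tumors, colored by Wnt cluster, with filled points where the probe was measured and open points where it was not. Right, the number of the 38 arrays on which each probe was well above background in the tumor color and in the reference color. A_51_P501145, A_52_P244702 and A_52_P566741 show the wide ranges, and the other 6 probes stay between -0.79 and 0.65.

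Lef1 (A_51_P501145) was below the reference in 16 of 17 tumors. In high-Wnt tumors its log2 ratio was -0.97 in p75-47, -0.73 in p75-80, 0.60 in p75-94, -1.44 in p110-225 and -0.87 in p110-374. In low-Wnt tumors the lowest value was -3.31 (p110-360), the median -2.51 and the highest -1.83 (p110-416). The 2 clusters did not overlap. The medium-Wnt tumors lay between them, at -1.58 in p75-90, -1.89 in p75-129, -2.06 in p75-216, -1.21 in p110-98 and -1.35 in p110-121, and overlapped both.

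Lef1 passed the test as higher in the high-Wnt tumors. Its mean there was -0.68 ± 0.77 (SD, n = 5) against -2.58 ± 0.48 (SD, n = 7) in the low-Wnt ones, a difference of 1.90 (SE 0.31, 95% interval 1.24 to 2.56) with a limma adjusted p of 0.0323 over all 41174 probes. The exact two-sided permutation p was 0.00126, the smallest that 5 against 7 tumors allow. In the same comparison 0.0729% of all probes were called higher in high-Wnt tumors and 0.0219% lower, and 0.879% were higher without overlap. The probe was measured in 2 of the 5 high-Wnt and 1 of the 7 low-Wnt tumors, on 4 of 10 and 3 of 18 arrays, so most values on either side are of signals close to background and the difference is one of ratios, not a measured fold in Lef1. The adjusted p was 0.033 to 0.0747 with each tumor left out in turn and was above 0.05 without p75-47, p75-80, p75-101, p110-143, p110-314, p110-360 or p110-374. It was also above 0.05 with scan day (0.142) or slide (0.175) as a random block. These fits used 15 tumors, without p110-143 and p110-360, so blocking and the loss of these tumors cannot be told apart.

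For Tcf7 (A_52_P244702) the clusters came in the same order by their means. In high-Wnt tumors its log2 ratio was -0.07 in p75-47, 0.54 in p75-80, 0.71 in p75-94, -0.42 in p110-225 and -0.44 in p110-374. In low-Wnt tumors it ran from -2.69 (p110-314) over a median of -1.42 to -1.14 (p75-534), with no overlap. In p110-314 the tumor signal was 691 at this probe, beside 633 at Lef1 A_52_P333110, which was not above background on any array. That Lef1 probe read 126 or less in the other tumors, so the lowest Tcf7 value comes from a signal little above that of an undetected probe. In medium-Wnt tumors it was -1.62 in p75-90, -1.32 in p75-129, -2.00 in p75-216, -0.61 in p110-98 and -1.10 in p110-121. In p110-225, p110-374, p75-90, p110-98 and p110-121 the probe was not above background on any array, so their place in this order is not known from the tumor color.

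For Tcf7 the high-Wnt mean was 0.06 ± 0.54 (SD, n = 5). The low-Wnt mean was -1.72 ± 0.62 (SD, n = 7). Their difference of 1.78 (SE 0.32, 95% interval 1.10 to 2.47) did not pass the threshold over all probes (limma adjusted p = 0.051). The exact permutation p was again the smallest possible, 0.00126. The probe was above background on 6 of 10 high-Wnt and 13 of 18 low-Wnt arrays, so this too is a difference of ratios, not a measured fold. On the tumor color alone the difference was 1.27. Against medium-Wnt tumors, whose mean was -1.33 ± 0.53 (SD, n = 5), the difference was 1.39 (SE 0.35, limma adjusted p = 0.985) and the groups, measured in 3 and 1 of their 5 tumors, did not overlap, as for 0.282% of all probes that were higher in high-Wnt tumors (exact permutation p = 0.00794, the smallest possible). Without the dim tumors p110-98, p110-225 and p110-374 it was 1.90 (SE 0.39, limma adjusted p = 0.224). Tcf7 was measured in more tumors than Lef1, in the 3 high-Wnt p75 tumors and in 5 low-Wnt tumors.

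Tcf7l2 (A_52_P566741) was higher than the reference in 16 of 17 tumors and its low-Wnt values were the highest. In low-Wnt tumors the lowest value was 0.98 (p110-416), the median 2.04 and the highest 2.81 (p75-150). In high-Wnt tumors it was 0.63 in p75-47, 1.44 in p75-80, 0.62 in p75-94, 0.63 in p110-225 and 1.14 in p110-374. In medium-Wnt tumors it was 0.31 in p75-90, 1.18 in p75-129, 1.58 in p75-216, 1.20 in p110-98 and -0.07 in p110-121. The 6 highest values were all of low-Wnt tumors, and p110-416 was the low-Wnt tumor among the others.

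For Tcf7l2 the high-Wnt mean was 0.89 ± 0.38 (SD, n = 5). The low-Wnt mean was 2.07 ± 0.63 (SD, n = 7). Their difference of -1.18 (SE 0.33, 95% interval -1.88 to -0.47), or 2.26 fold, missed the threshold (limma adjusted p = 0.161, exact permutation p = 0.00884), and the groups overlapped. For comparison, 0.602% of all probes were lower in high-Wnt tumors without overlap. None of the other 6 probes passed, with high-Wnt minus low-Wnt differences from -0.13 to 0.09 and limma adjusted p of 0.59 to 0.983.

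**Figure D2:**
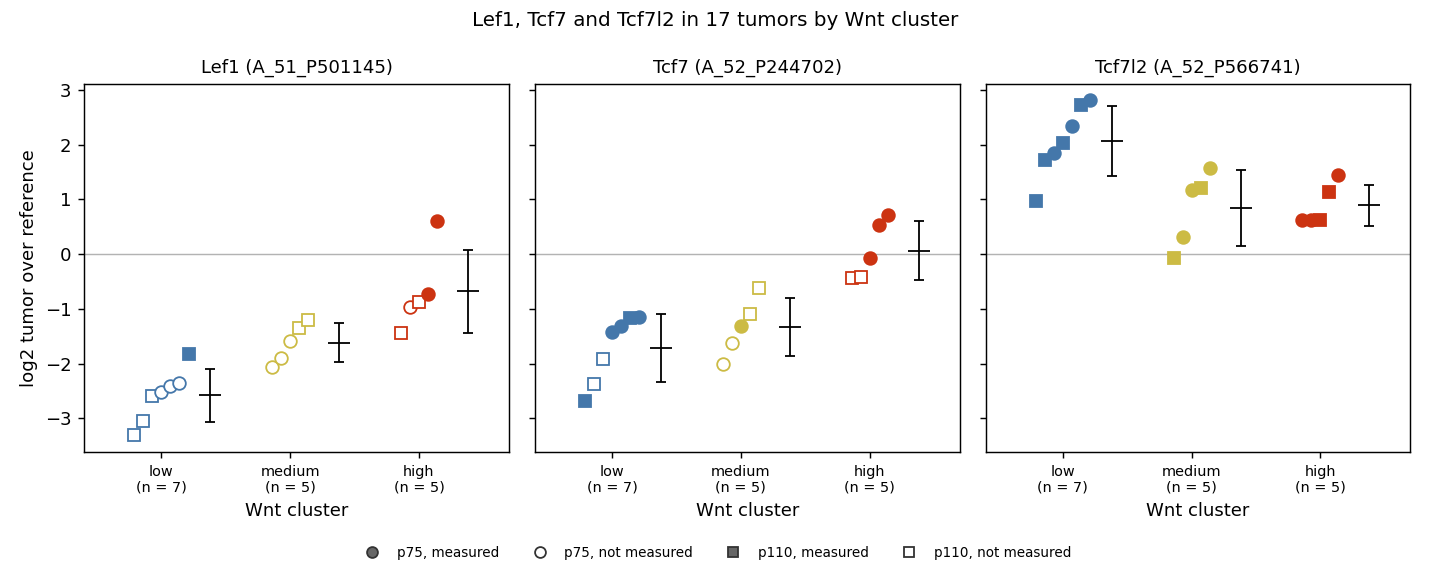
Log2 ratio of tumor over reference (vertical axis) of the best measured probe of each gene in the low-Wnt, medium-Wnt and high-Wnt tumors (horizontal axis), with circles for p75 and squares for p110 tumors, filled where the probe was measured and open where it was not. Black bars give the mean and SD. High-Wnt and low-Wnt tumors do not overlap for Lef1 and Tcf7, and Tcf7l2 runs the other way with p110-416 inside the high-Wnt range.

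The differences between the clusters were also taken within each transgene. Among p75 tumors (3 high-Wnt, 3 low-Wnt) the high-Wnt minus low-Wnt difference was 2.06 (SE 0.45) for Lef1, 1.68 (SE 0.35) for Tcf7 and -1.44 (SE 0.43) for Tcf7l2. Among p110 tumors (2 and 4) it was 1.54 (SE 0.48), 1.61 (SE 0.37) and -0.98 (SE 0.46). The difference between transgenes was 0.53 (SE 0.66) for Lef1, 0.07 (SE 0.51) for Tcf7 and -0.46 (SE 0.63) for Tcf7l2, with limma adjusted p of 0.811, 0.975 and 0.827. Scan year splits the tumors exactly as the transgene does, so these are also the values within each scan year. With scan year as a block the differences were 1.87 for Lef1 (limma adjusted p = 0.0324), 1.73 for Tcf7 (0.0432) and -1.24 for Tcf7l2 (0.112). With scan day as a random block they were 1.73, 1.57 and -0.98 (limma adjusted p = 0.142, 0.192 and 0.396), and with slide 1.71, 1.56 and -0.91 (0.175, 0.239 and 0.471), so that neither Lef1 nor Tcf7 passed.

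The 2 p110 tumors in the high-Wnt cluster, p110-225 and p110-374, are also dim in the tumor color, as is p110-98 of the medium-Wnt cluster, so the differences among p110 tumors rest on dim libraries and cannot be had without them. Neither Lef1 nor Tcf7 was above background on any array of p110-225 or p110-374, so that for these genes the p110 differences compare signals near background. Without these 3 tumors, a choice made after seeing the data, the high-Wnt minus low-Wnt difference was 2.21 (SE 0.35) for Lef1, 2.11 (SE 0.35) for Tcf7 and -1.17 (SE 0.42) for Tcf7l2, with limma adjusted p of 0.0447, 0.0538 and 0.464. Across all alternatives other than leaving out single tumors, the difference ranged from 1.15 to 2.82 for Lef1, from 1.27 to 2.11 for Tcf7 and from -2.06 to -0.91 for Tcf7l2. The direction held in each of them. The 1.15 for Lef1 was among solid carcinomas alone, where the high-Wnt side is 1 tumor, the dim p110-225. The limma adjusted p was under 0.05 for Lef1 in 5 of the 18 alternatives that could test it, for Tcf7 in 4 of 19 and for Tcf7l2 in none of the 19.

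**Figure D3:**
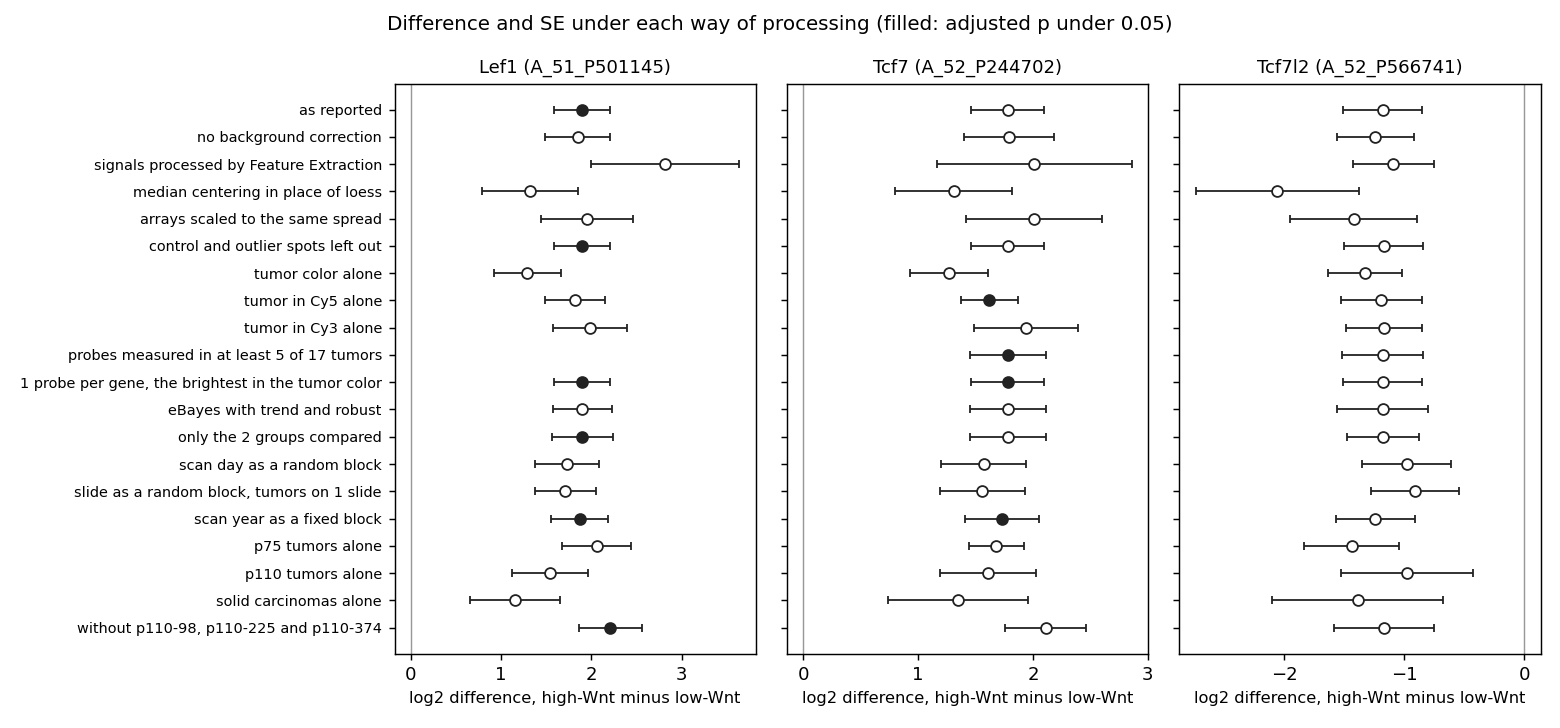
High-Wnt minus low-Wnt difference in log2 ratio (horizontal axis, bars are SE) of the best measured probe of each gene under each way of processing or choice of tumors (rows), with filled points where the limma adjusted p was under 0.05. All points lie to the right of 0 for Lef1 and Tcf7 and to the left of 0 for Tcf7l2, and most are open. Lef1 has no point where only probes measured in at least 5 tumors were kept.

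The medium-Wnt mean was nearest to the high-Wnt mean for Tcf7l2 and to the low-Wnt mean for Tcf7. For Tcf7l2 the medium-Wnt mean was 0.84 ± 0.69 (SD, n = 5), away from the low-Wnt mean by -1.23 (SE 0.33, limma adjusted p = 0.202, exact permutation p = 0.0126), while high-Wnt minus medium-Wnt was 0.05 (95% interval -0.71 to 0.81). Without p110-121, the library with few epithelial markers, the medium-Wnt minus low-Wnt difference had the same sign (SE 0.33, limma adjusted p = 0.442). For Tcf7 the medium-Wnt minus low-Wnt difference was 0.39 (SE 0.32, 95% interval -0.30 to 1.07, limma adjusted p = 0.662). Without the 3 dim tumors the differences were 0.21 for Tcf7 and -1.32 for Tcf7l2 (limma adjusted p = 0.861 and 0.341). For Lef1 the mean ratios were -1.62 ± 0.36 (SD, n = 5) and -2.58 (limma adjusted p = 0.284), and no difference in level is given, since the probe was above background on 0 of 10 medium-Wnt and 3 of 18 low-Wnt arrays.

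Lef1 was not well above background on any of the 10 medium-Wnt arrays, so its level there is only bounded from above, and on the high-Wnt side it was above background on 4 of 10 arrays, those of p75-80 and p75-94. Against the lowest signal well above background on each medium-Wnt array, the high-Wnt mean of the tumor color was 1.73 fold higher, or 1.43 fold without p75-94 (limma adjusted p = 1 for the ratio). That mean includes 3 tumors not above background, whose levels are themselves only bounded from above. The 1.73 fold is therefore not a lower bound on the difference, for the group mean or for each tumor. No member probe was called in medium-Wnt against low-Wnt tumors, where 0.0243% of all probes were, nor in high-Wnt against medium-Wnt tumors, where 0% were by limma and 1509 probes had an unadjusted p under 0.05.

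By histology, no difference in the 3 genes passed the test, and the 4 adenosquamous tumors split by cluster. Lef1 was -0.97, -0.73 and 0.60 in the 3 high-Wnt adenosquamous carcinomas and -2.51 in p75-101, the low-Wnt one. Tcf7 was -0.07, 0.54 and 0.71 against -1.42, and Tcf7l2 was 0.63, 1.44 and 0.62 against 2.35. For all 3 genes p75-101 lay within the range of the solid low-Wnt tumors. Of the 9 solid carcinomas, 1 was high-Wnt, the dim library p110-225, and neither Lef1 (-1.44) nor Tcf7 (-0.42) was measured in it.

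The adenosquamous minus solid difference was 1.34 for Lef1 (means -0.90 ± 1.28, SD, n = 4, and -2.25 ± 0.68, SD, n = 9, limma adjusted p = 0.881, exact permutation p = 0.028). It was 1.44 for Tcf7 (means -0.06 ± 0.96 and -1.50 ± 0.71, limma adjusted p = 0.881, exact permutation p = 0.014). For Tcf7l2 A_52_P566741 it was -0.28 (95% interval -1.39 to 0.83, limma adjusted p = 0.934), and -0.64 to -0.07 with each tumor left out in turn. No probe of any gene passed in this comparison (0%), in which 2235 probes had an unadjusted p under 0.05. Without p75-94 the Lef1 difference was 0.84.

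A second Tcf7l2 probe separated these 2 histologies by a small amount. A_52_P146043 ran from -0.19 to 0.01 in adenosquamous and from 0.03 to 0.23 in solid carcinomas without overlap, as for 0.199% of all probes that were lower in adenosquamous tumors (difference -0.23, SE 0.07, limma adjusted p = 0.881, exact permutation p = 0.0014, the smallest possible). It was measured in 2 of the 4 and 3 of the 9 tumors. On the tumor color alone the difference was 0.12, in the other direction. The other histologies, of 1 or 2 tumors each, were not tested. In the adenomyoepitheliomas p75-90 and p110-374 Lef1 was -1.58 and -0.87, in the adenocarcinoma p75-216 it was -2.06 and in the adenoma p110-98 it was -1.21.

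**Figure D4:**
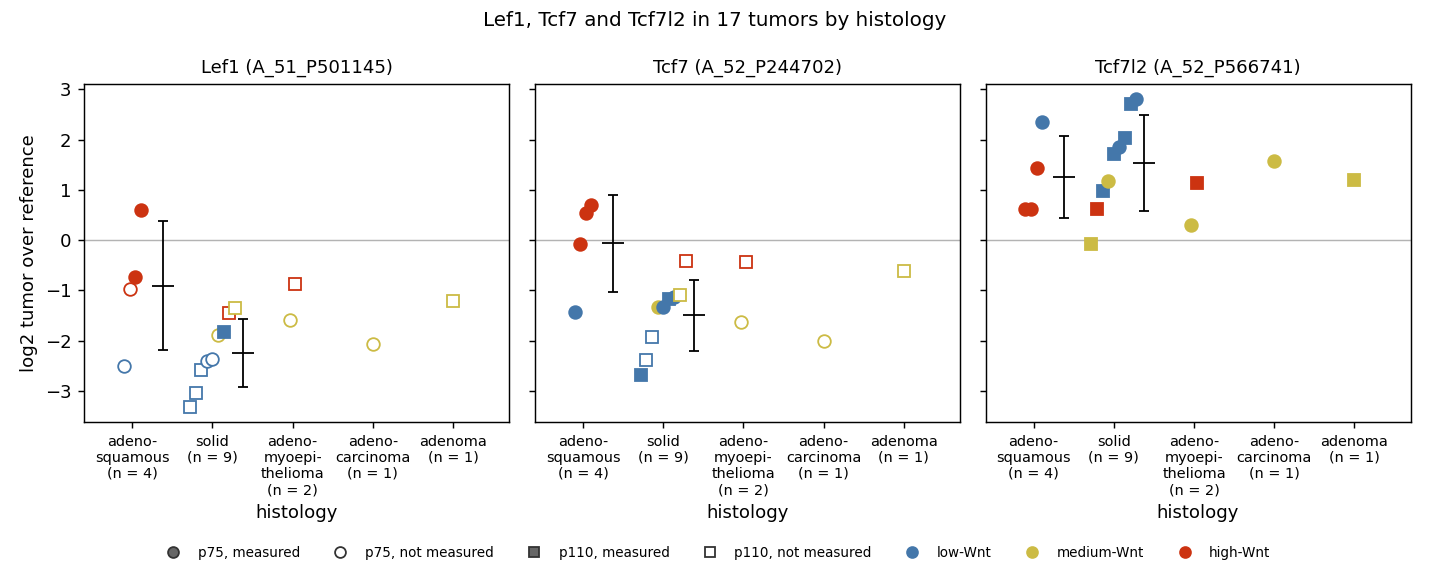
Log2 ratio of tumor over reference (vertical axis) of the best measured probe of each gene by histology (horizontal axis), colored by Wnt cluster, with circles for p75 and squares for p110 tumors, filled where the probe was measured. Black bars give the mean and SD of the 4 adenosquamous and 9 solid carcinomas. The low-Wnt adenosquamous carcinoma p75-101 sits apart from the 3 high-Wnt ones in each panel.

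Between transgenes no difference in the 3 genes passed the test. The p75 minus p110 difference was 0.41 (SE 0.45) for Lef1, 0.49 (SE 0.44) for Tcf7 and 0.12 (SE 0.40) for Tcf7l2, with limma adjusted p of 0.751, 0.676 and 0.927. With each tumor left out in turn it was 0.14 (without p75-94) to 0.56 for Lef1 and 0.30 (without p75-94 or p110-314) to 0.64 for Tcf7. Lef1 was also at 0.25 without p110-314 and 0.22 without p110-360, and Tcf7 at 0.32 without p75-80. Without the 3 dim tumors it was 0.88 (SE 0.51) for Lef1, 1.01 (SE 0.48) for Tcf7 and -0.06 (SE 0.49) for Tcf7l2 (limma adjusted p = 0.603, 0.499 and 0.98). With median centering in place of loess it was 1.13, 1.11 and 1.36 (limma adjusted p = 0.102, 0.105 and 0.155), and with Feature Extraction signals 0.63, 1.93 and 0.04 (0.809, 0.24 and 0.976). The 95% intervals, -0.55 to 1.37, -0.44 to 1.42 and -0.72 to 0.96, are wide enough to hold a difference of 0. None of the 9 probes was called, against 0.425% of all probes. Transgene and scan year cannot be told apart in this comparison.

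The log2 ratios of Lef1 and Tcf7 were correlated over the tumors, although both probes were measured in only 3 of them (p75-80, p75-94 and p110-416), so that most of these values lie near background in the tumor color for at least 1 of the genes. Over the 17 tumors Pearson's r was 0.903 and Spearman's rho 0.885 (permutation p = 1e-05 for each, the smallest that 100000 resamples can give, adjusted p = 0.00018 over 18 relations), and r was 0.859 without the 2 tumors farthest from the median of Lef1. Among the p75 tumors (n = 9) it was 0.858 (exact permutation p = 0.00451, adjusted 0.0256), but rho was 0.583 (exact permutation p = 0.108, adjusted 0.216) and r fell to 0.589 without the 2 farthest tumors. Among the p110 tumors (n = 8) it was 0.955 (exact permutation p = 0.00104, adjusted 0.00936), with rho 0.833 (exact permutation p = 0.0154, adjusted 0.0516). The relation spans the clusters, which differ in Lef1 themselves. In the 13 tumors other than the 3 dim ones and p110-121, r was 0.906 and rho 0.786. Fewer than 6 p110 tumors remain without these 4, so no value is given for them.

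Lef1 and Tcf7l2 ran in opposite directions, with r = -0.641 and rho = -0.711 over the 17 tumors (permutation p = 0.00569 and 0.00185, adjusted 0.0256 and 0.0167), and r was -0.65 without the 2 farthest tumors and -0.662 in those 13 tumors. For the p75 set r was -0.663 and within p110 tumors -0.697 (exact permutation adjusted p = 0.124 for each). For Tcf7 and Tcf7l2 r was -0.44 (permutation adjusted p = 0.152). The relation of Lef1 and Tcf7 with the share of probes measured was weak over all tumors (r = -0.186 and -0.234) and within p75 tumors (0.182 and 0.0919). Within the 8 p110 tumors it was -0.77 for Lef1 and -0.819 for Tcf7 (exact permutation adjusted p = 0.0909 and 0.059), and rho was -0.857 for each (exact permutation adjusted p = 0.0482), so that p110 libraries with fewer probes measured had the higher ratios. Its part in the p110 values was not tested.

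**Figure D5:**
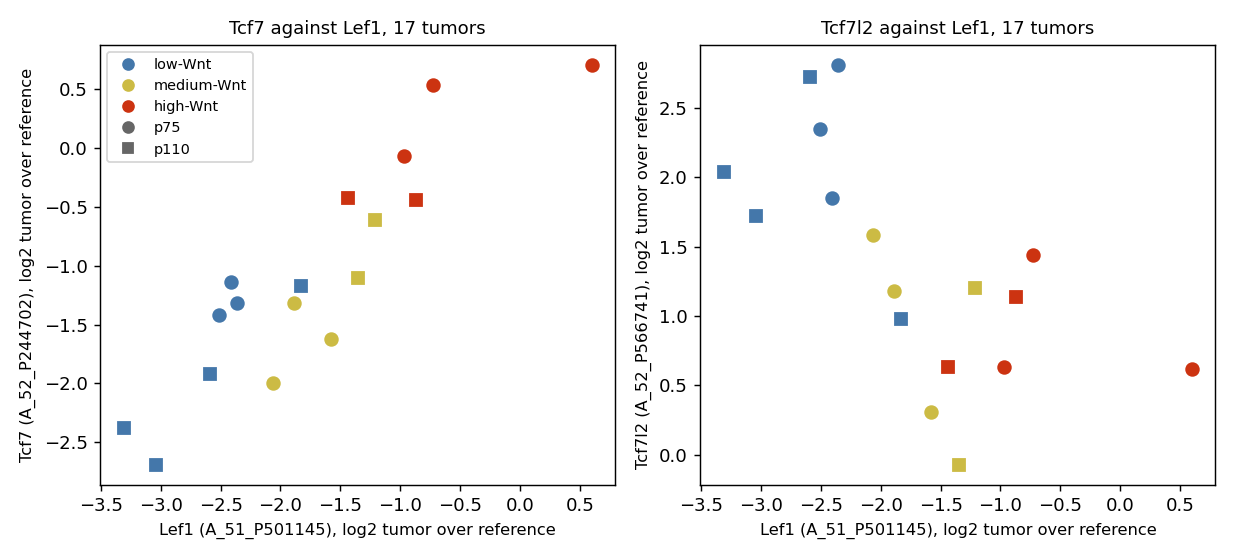
Tcf7 (left) and Tcf7l2 (right) against Lef1, all as log2 ratio of tumor over reference, in 17 tumors colored by Wnt cluster, with circles for p75 and squares for p110. Tcf7 rises with Lef1 (r = 0.903) and Tcf7l2 falls (r = -0.641), with the tumor p75-94 farthest to the right in both panels.

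The probes with the pattern most like each member over the 17 tumors were sought among the 11714 probes of named genes that were measured in at least 9 tumors. The Lef1 probe itself was measured in 3 tumors and the Tcf7 probe in 9, so their likeness to others rests largely on values near background. For Lef1 the nearest was Tcf7, followed by Wnt6 (r = 0.89), a Wnt ligand and so of the family that set the clusters, S100a3 (0.88), Padi1 (0.862) and Rrp1b (0.848). For Tcf7 these were Rrp1b (r = 0.887), Lypd6b (0.878), Padi1 (0.866), Wnt6 (0.853) and S100a3 (0.84). S100a3, a calcium-binding protein, and Padi1, a peptidylarginine deiminase, are known from hair and epidermis. For Tcf7l2 they were Zfp68 (r = 0.925), Wfdc12 (0.89), Plscr1 (0.884), Kit (0.867) and Pcmtd2 (0.865), of which Kit is a receptor tyrosine kinase of luminal progenitors.

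Of 31 probes for 18 nuclear partners of TCF/LEF, 0 passed in high-Wnt against low-Wnt tumors by limma, 2 were higher and 5 lower at an unadjusted p under 0.05, and the median difference was -0.02, against 0.01 over all probes. Over all 41174 probes, 4749 (11.5%) had an unadjusted p under 0.05 in that comparison. Ctnnb1, which encodes β-catenin itself, differed by -0.20 (SE 0.55, limma adjusted p = 0.92) at A_52_P424585, the probe measured in all 17 tumors. The 2 probes of Tcf7l1, the family member that acts mainly as a repressor, had means of 1.21 and 1.20 in low-Wnt and 0.35 and 0.26 in high-Wnt tumors, differences of -0.85 (SE 0.54) and -0.94 (SE 0.31) with limma adjusted p of 0.583 and 0.24. Among 30 probes for 21 TCF/LEF target genes (Fgf4 had no probe) 0 passed by limma, with 8 higher and 1 lower at an unadjusted p below 0.05. The median of their differences was 0.36, and 25 of the 30 probes were measured in some tumor. Their mean log2 ratio ran from 0.06 to 1.53 in high-Wnt and from -0.18 to 0.93 in low-Wnt tumors. Among high-Wnt tumors it was 0.68 in p75-47, 1.53 in p75-80 and 1.51 in p75-94, but 0.07 in p110-225 and 0.06 in p110-374. The 0.93 was that of p110-416. No gene of either list passed in adenosquamous against solid carcinomas.

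Since Lef1 and Tcf7 are also expressed in T cells, the markers of other cell types were read in the same tumors. Of 13 T and natural killer cell markers, 1 to 11 were measured in a high-Wnt tumor and 6 to 12 in a low-Wnt tumor, and their mean log2 ratio ran from -0.37 to 0.19 and from -0.61 to 0.23. None of their 26 probes passed in high-Wnt against low-Wnt tumors by limma, with 3 higher and 4 lower at an unadjusted p under 0.05. The 3 higher ones were probes of Cd5 (1.14, SE 0.43), Cd3e (0.12, SE 0.05) and Ptprc (0.14, SE 0.05), and the 4 lower ones of Cd3d (-1.67, SE 0.65), Cd8a (-1.24, SE 0.41, and -1.66, SE 0.67) and Cd247 (-0.37, SE 0.13), with limma adjusted p of 0.23 to 0.346. These genes were named after their values were seen, and those probes of Cd3e, Ptprc and Cd247 were not measured in any tumor. In bulk RNA, fewer cells of a type and less RNA per cell cannot be told apart.

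For 10 markers of squamous cells, keratins and cornified envelope genes, the mean log2 ratio ran from -0.17 to 2.30 in high-Wnt and from -0.40 to -0.18 in low-Wnt tumors, with 3 to 9 and 2 to 4 of the 10 genes measured. None of their 12 probes passed by limma, 8 were higher at an unadjusted p under 0.05, and the median difference was 0.75. The largest mean values, 2.30 and 1.32, were in p75-80 and p75-94, which are also the tumors with the highest Tcf7, while p75-47 was at -0.17 beside -0.18 in the low-Wnt tumor p75-101. Fibroblast markers had a median difference of 0.31, B and myeloid cell markers 0.20, mammary epithelial markers 0.10 and endothelial markers -0.04, with 0 probes passing in each by limma and 1, 2, 3 and 1 at an unadjusted p under 0.05. The part of squamous cells in the Lef1 and Tcf7 values was not tested.

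The RefSeq promoter windows (build GRCm38.p6, 250 bases before to 50 after each start) were searched on both strands for the TCF/LEF element, spelled CTTTG followed by AA, AT, TA or TT. It was present in 16.9% of all 32851 windows, in 1 of 4 windows of Lef1, 0 of 2 of Tcf7 and 1 of 2 of Tcf7l2. The Lef1 match, at chr3:131156135-131156164, lies 147 bases upstream of a start, with the element on the minus strand, and the Tcf7l2 match, at chr19:55895295-55895324, lies 14 bases upstream of a start, as shown with the element in capitals:
Lef1 window: acaacctcagaaTACAAAGtaggattgcat
Tcf7l2 window: caaaatatcaggCTTTGTTcttttgattga
These matches are a description of the letters in the windows.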

How the data were processed

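RNA of epithelial cells captured by laser was amplified in 2 rounds and hybridized to Agilent Whole Mouse Genome arrays. The deposited scanner files hold spot intensity, extracted with Agilent software by the authors and not yet normalized. The authors' table holds log2 ratios of tumor over reference, 1 column per tumor. Its values equal those obtained from the scanner files by normexp background correction (offset 50), loess within each array and averaging over dye swaps, to within 4.98e-08, and the authors name limma. With swaps, a bias of 1 dye at a probe cancels in the mean. The number of arrays limits the precision, as do 2 rounds of amplification and signals close to background.

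These log2 values were averaged over spots of a probe, and groups were compared with limma 3.58.1 (lmFit and eBayes, R 4.3.3, statmod 1.5.0), 1 value per tumor, Benjamini-Hochberg adjusted over all 41174 probes with a threshold of 0.05. The cluster comparisons were contrasts of 1 fit over all 3 clusters, adenosquamous and solid carcinomas of a fit of all histologies, and transgenes of their own fit. Single probes were also compared with exact two-sided permutation tests. In a simulation of high-Wnt against low-Wnt tumors with 41174 probes, 58% of 100 probes changed by 1 and 85% of 100 changed by 2 on the log2 scale were called, with 7 false calls. The changed probes were drawn from all probes, each with its own spread and independent normal noise. The rates are thus averages over probes and do not hold for the 3 member probes with wide ranges. RefSeq accessions named 22951 probes (55.7%), and the others kept the files' names.

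All member probes were to be named. From the lists of nuclear partners and target genes, Ctnnb1, Tcf7l1 and any gene that passed were to be named, and the 5 most alike genes per member by Pearson's r. The members, lists and rules were chosen with earlier results of these data known. Alternatives covered background correction, normalization, single dyes, the tumor color alone (loess, then quantile normalization of the average intensities), filters on dim probes, the brightest probe per gene, eBayes settings, subsets of tumors, blocks for scan year, scan day and slide, and each tumor left out. Leaving out the 3 dim p110 tumors was chosen after seeing the data. For random blocks the correlation was estimated on an evenly spaced subset of probes. Tumors with arrays on more than 1 slide or day, p110-143 and p110-360, were left out of these fits.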

Additional observations from a re-analysis of the deposited data

Results flagged for a closer look

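Of 63 groups tested over the 9 probes (3 clusters, 2 histologies and 2 transgenes for each), 1 held a tumor far from its group. Chance would give about 1 in 20, so 1 of 63 is fewer than chance would give. Tcf7l2 probe A_52_P316355 was at 0.65 in p75-90, with the nearest other medium-Wnt tumor at -0.29, a gap of 0.808 of the range of that group (n = 5). In p75-90 the probe was above background on both arrays, and it was not measured in the other 4 medium-Wnt tumors.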

How the results depend on the processing

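No paired analysis was possible because the labels give no number that pairs tumors of different groups. In high-Wnt against low-Wnt tumors, the number of member probes called, 1 in the main analysis, was 0 under 12 alternatives. Lef1 A_51_P501145, at 1.90 (limma adjusted p = 0.0323), then differed by 1.85 with no background correction, 2.82 with Feature Extraction signals, 1.32 with median centering, 1.95 with arrays scaled to the same spread, 1.29 on the tumor color alone, 1.98 in Cy3 alone, 1.90 with a trended and robust eBayes, 1.73 with scan day and 1.71 with slide as a random block (tumors on 1 slide), 2.06 in p75, 1.54 in p110 and 1.15 in solid tumors alone. With Cy5 alone it was 1.82 and also missed the threshold, while Tcf7 A_52_P244702 passed at 1.62 (adjusted p = 0.0458). Tcf7 also passed at 1.78 among probes measured in at least 5 tumors, where the Lef1 probe drops out, at 1.78 with 1 probe per gene and at 1.73 with scan year as a block, and 2 member probes were called under the last 2 of these. With each tumor left out the count was 0 to 1 and Lef1 1.58 to 2.09. In the other 4 comparisons the count of member probes called was 0 under each alternative. Over all probes, and with no single tumor left out, the calls ranged from 0 to 363 in high-Wnt against low-Wnt, 0 to 17 in medium-Wnt against low-Wnt, 0 to 16 in high-Wnt against medium-Wnt, 0 to 1 by histology and 0 to 3360 by transgene, against 39, 10, 0, 0 and 175. With each tumor left out they ranged from 6 to 48, 4 to 137 (without p75-216), 0 to 1, 0 to 27 (without p75-101) and 62 to 1219 (without p110-314).

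Differences that missed the threshold changed sign as follows. Tcf7 in medium-Wnt against low-Wnt (0.39) was -0.83 with Feature Extraction signals and -0.10 on the tumor color. Tcf7l2 A_52_P566741 in high-Wnt against medium-Wnt (0.05) was -0.25 with median centering, -0.07 on the tumor color, -0.01 in Cy5 and -0.18 to 0.24 with each tumor left out. By histology (-0.28) it was 0.11 with median centering. In p75 against p110 (0.12) it was -0.07 with scaled arrays, -0.28 on the tumor color, -0.06 without p110-98, p110-225 and p110-374, and -0.07 to 0.33 with each tumor left out. Lef1 in p75 against p110 (0.41) was -0.19 on the tumor color. Tcf7l2 A_52_P146043 on the tumor color was 0.12 by histology (-0.23) and 0.28 by transgene (-0.18), where Cy3 alone gave 0.01. The cause was not tested. Signal close to background limits the Lef1 values, since A_51_P501145 was measured in 3 tumors.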

Other observations

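The dye-swapped arrays of p110-314 differed most for Lef1 and Tcf7. The log2 ratio with the tumor in Cy5 exceeded that in Cy3 by 2.94 for Lef1 A_51_P501145 and by 2.02 for Tcf7 A_52_P244702, against medians of 0.88 and 0.13 over the 17 tumors. Without p110-314 the high-Wnt minus low-Wnt difference was 1.82 for Lef1 (limma adjusted p = 0.0668) and 1.62 for Tcf7 (limma adjusted p = 0.0784).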
